A study of Bos taurus with 48 samples.

Results

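Myostatin and activin signalling was followed here through 9 genes: the ligands MSTN and INHBA, the extracellular inhibitors FST and FSTL3, the type II receptors ACVR2A and ACVR2B, and the intracellular transducers SMAD2, SMAD3 and SMAD7. The members were taken as the bovine array probes whose gene symbol or description names one of these genes. They were reached by 12 of 21475 probes, which stand for 8 of the 9 genes. A literal match of the symbols gave 9 of these probes, and the RefSeq gene table added 3 that the array lists under older names (MSTN as GDF8, ACVR2A as ACVR2 and a second SMAD7 probe under a locus number). ACVR2B was not analysed here, since no probe was matched to it. The other 8 genes all passed the filter on dim probes and were tested among 14653 genes.

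RNA from biopsies of longissimus dorsi, the long back muscle of cattle, was measured on 48 arrays that each held a pair of samples in different dyes. On 36 arrays a Piedmontese sample was set against a Wagyu sample at 60, 135 and 195 days of gestation, at birth (280 days) and at 3, 7, 12, 20, 25 and 30 months of age. The study's methods name these animals as Piedmontese × Hereford and Wagyu × Hereford crosses. On the other 12 arrays Belmont Red cattle on a weight loss diet were set against Belmont Red cattle on a weight growth diet at time points numbered 0, 1 and 2, whose spacing the labels do not give. There were 27 animals in the developmental arrays and 8 in the diet arrays. The Piedmontese samples at 195 days carry the animal labels GP041A and GP041B. They were counted as 2 animals, and whether they come from 1 animal is not known. Each cross was represented by a single fetus at 60 days, measured on 3 arrays, so that age has no spread between animals. The samples of the 6 post-natal ages came from 5 Piedmontese and 4 Wagyu animals, most of them sampled repeatedly. Not every animal was sampled at each age.

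Myostatin is a secreted member of the TGF-beta family that restrains the growth of skeletal muscle. Myostatin and the activins, which are dimers of the INHBA product and its relatives, bind activin type II receptors, after which SMAD2 and SMAD3 are phosphorylated and carry the signal to the nucleus. Follistatin (FST) and follistatin-like 3 (FSTL3) bind these ligands outside the cell, and SMAD7 is an inhibitory SMAD that is itself induced by the pathway. Piedmontese cattle are known for a missense change in MSTN and for heavy muscling, and Wagyu cattle for marbled beef. The labels give no MSTN genotype for any animal, nor the share of each breed in the crosses.

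The probes that the cross comparison turns on are shown first. The MSTN probe has a single reading frame without a stop codon, and the capitals mark its last cysteine codon, TGT. The FST probe runs over the end of its coding sequence, and its capitals mark the stop codon TAA that closes its longest open frame. Both sequences are 60 bases long and are given as the array's design lists them.

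MSTN: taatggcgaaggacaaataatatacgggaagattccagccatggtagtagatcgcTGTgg

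FST: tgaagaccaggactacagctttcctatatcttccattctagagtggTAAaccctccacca

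These sequences report how much transcript was present. The MSTN probe covers the last codons of the mature peptide and does not cover the Piedmontese missense codon, so the arrays do not check the genotype. Values below are normalised log2 intensities, 1 value per animal and time, where a difference of 1 is a doubling. Levels of different probes are not set against each other. The MSTN probe was well above background in 93 of 96 channels. The 3 exceptions were 1 Piedmontese sample at 135 days and 2 of the 3 Wagyu samples at birth, so those levels are close to the lower limit of the measurement.

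A Piedmontese fetus at 135 days, animal GP672, stood apart from the rest. Its mean level over 9 skeletal muscle fibre genes was 9.51, against 13.06 to 13.61 in the other 4 fetuses of that age, while its fibroblast genes, at 13.27, lay near the others at 12.88 to 13.19. Its MSTN level was 6.67, against 8.61 to 9.35 in those 4 fetuses. Its adipocyte genes were at 13.72, against 8.42 to 9.39, its satellite cell and myoblast genes at 9.16, against 12.54 to 12.68, and its erythroid genes at 14.74, against 12.65 to 13.84. The main member differences with this animal are given also without it, while single-probe values and the counts over gene lists include it. In a biopsy, fewer cells of a type and less RNA per cell cannot be told apart. Over all arrays, muscle fibre, fast fibre, slow fibre, fibroblast and endothelial genes were well above background in most of the tested members, and 6 of 9 muscle fibre genes were so in every channel.

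MSTN did not differ detectably between the crosses at any stage. At 60 days the Piedmontese fetus had a level of 8.72 and the Wagyu fetus 9.06. At 195 days the Piedmontese animals were at 8.90 and 8.97 and the Wagyu animals at 8.68, 9.07 and 9.20. The ranges overlapped at 195 days. At birth the 3 Piedmontese calves were at 7.32, 7.45 and 7.57, and the 3 Wagyu calves at 6.76, 7.31 and 8.27. The Piedmontese calves all lay inside the Wagyu range, and the means of both crosses were 7.45. The fetal difference, Piedmontese minus Wagyu, was -0.33 (SE 0.38, 95% interval -1.18 to 0.52, n = 6 and 6 animals) by limma, with an adjusted p of 1.00. Without GP672 it was -0.02 (SE 0.15, n = 5 and 6). At birth it was 0.00 (SE 0.36, 95% interval -0.86 to 0.86, n = 3 and 3). Under the other settings the birth difference ranged from -0.02 to 0.93 and passed in none. The size of the newborn difference therefore depends on the processing of levels close to the lower limit.

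**Figure D1:**
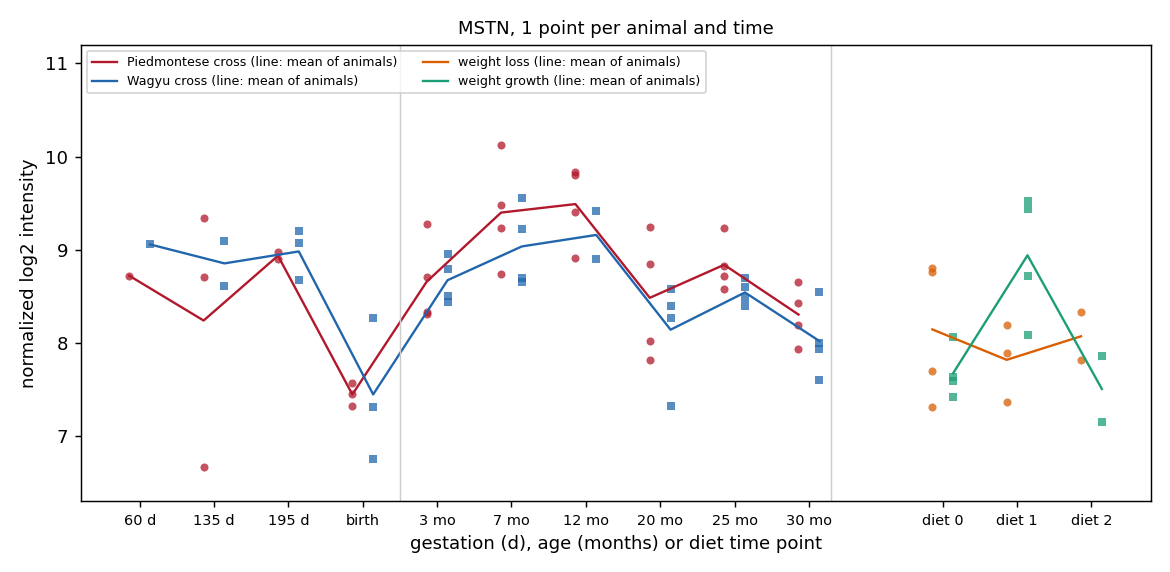
MSTN level (normalised log2 intensity, vertical axis) for each animal at each gestational age, post-natal age and diet time point (horizontal axis), with lines through the mean of the animals of each group. Both crosses have a mean of 7.45 at birth, below the 195-day means of 8.94 and 8.98, and the Piedmontese mean lies above the Wagyu mean from 7 months on.

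After birth the mean MSTN level of the Piedmontese animals lay above that of the Wagyu animals from 7 months on, by amounts within the spread. The means were 8.66 ± 0.45 (SD, n = 4) in Piedmontese and 8.67 ± 0.24 (n = 4) in Wagyu at 3 months, and 9.40 ± 0.58 and 9.04 ± 0.43 at 7 months. At 30 months they were 8.30 ± 0.31 and 8.02 ± 0.39. In the fit over all ages the Piedmontese value was the higher at 6 of 6 post-natal ages, the smallest difference being 0.04 (SE 0.36) at 3 months. Averaged over the ages at which each animal was sampled, the deviations from the age means were 0.14, 0.28, 0.14, 0.91 and -0.15 in the Piedmontese animals and -0.35, -0.30, -0.01 and 0.21 in the Wagyu animals. The groups overlapped, and the value of 0.91 came from an animal sampled at 7 months alone. The post-natal difference was 0.37 (SE 0.20, 95% interval -0.07 to 0.81, n = 5 and 4, adjusted p = 1.00 by limma). It was 0.21 without that animal. The change of the cross difference from fetal to post-natal ages was 0.62 (SE 0.40), with an adjusted p of 1.00 by limma with the animal as a random block, and 0.35 (SE 0.34) without GP672.

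FST was lower in Piedmontese than in Wagyu muscle at 9 of 10 ages, without passing the test after adjustment. At 60 days the Piedmontese fetus was at 11.47 and the Wagyu fetus at 12.18. At 135 days the Piedmontese fetuses were at 11.72, 11.75 and, in GP672, 12.23, and the Wagyu fetuses at 11.83 and 12.21. These ranges overlapped. At 195 days the Piedmontese animals were at 11.22 and 11.33 and the Wagyu animals at 11.33, 11.78 and 11.88. At birth the Piedmontese calves were at 10.25, 10.82 and 11.10 and the Wagyu calves at 11.36, 11.53 and 11.60. The newborn groups did not overlap, and FST was the single member of 8 for which this was so; 9.52% of all genes had groups that did not overlap at birth. The difference at birth was -0.77 (SE 0.22, 95% interval -1.31 to -0.24, n = 3 and 3), a 1.71-fold lower level, with an adjusted p of 0.759 by limma. In the fit over all ages the same difference had an SE of 0.24 and an adjusted p of 0.0819. It ranged from -0.96 to -0.54 when each calf was left out in turn. Marker genes at birth had median differences of -0.56 (fibroblast), -0.19 (adipocyte), -0.12 (slow fibre), 0.21 (fast fibre) and 0.33 (erythroid). The other marker lists lay from -0.03 to 0.04. Over all animals, GP672 included, the medians were -0.61 for slow fibre, -0.22 for fibroblast, 0.09 for adipocyte and 0.36 for erythroid genes. In these lists 0 genes passed. The part of these shifts in the FST difference was not tested.

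The same direction held for FST in the arrays taken singly. The log ratio of Piedmontese over Wagyu was negative on 9 of 9 fetal arrays, on 3 of 3 arrays at birth and on 17 of 24 post-natal arrays. These ratios hold the same values as the animal differences, and arrays of the same animals are not independent. The share of all genes with such counts was not taken. The fetal difference was -0.33 (SE 0.14, n = 6 and 6) with an adjusted p of 1.00 by limma, and -0.41 (SE 0.12) without GP672. After birth the means were 9.41 ± 0.17 (SD, n = 4) in Piedmontese and 9.73 ± 0.24 (n = 4) in Wagyu at 3 months, and 9.23 ± 0.46 and 9.69 ± 0.42 at 30 months. The exception was 12 months, at 10.03 ± 0.30 (n = 4) and 9.90 ± 0.17 (n = 2). The post-natal difference was -0.18 (SE 0.11, n = 5 and 4, adjusted p = 1.00). Over all 27 animals, compared within age, it was -0.38 (SE 0.10, 95% interval -0.59 to -0.17, n = 14 and 13), with p = 0.000935 and adjusted p = 0.607 by limma. Without GP672 the value was -0.41 (SE 0.10) with an adjusted p of 0.231. When the log ratios of the arrays were averaged per slide, with the array as a replicate block, and the 9 slides were tested against 0, the difference was -0.30 (SE 0.06) with an adjusted p of 0.0456 by limma. That setting treats repeated biopsies of the same animals as separate evidence. Of all genes, 4.51% were lower in Piedmontese at 9 or more of the 10 ages and 8.01% were higher at all 6 post-natal ages.

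Counts for the other members show the same absence of calls. In the fetal comparison 0 of 8 members passed an adjusted p of 0.05, beside 0% of all genes. At birth it was 0 of 8, beside 0.00682% of all genes. The fit over all ages, in which the newborn comparison draws its spread from every age, gave 0 of 8 at birth beside 1.84% of all genes. After birth it was 0 of 8, beside 0%, and over all animals 0 of 8, beside 0.0136%. At an unadjusted p under 0.05 limma gave 351 genes in the fetal comparison and 711 after birth. The change of the cross difference with stage was called for 0 of 8 members, beside 0.491% of all genes.

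The remaining cross differences were small or loosely fixed. FSTL3 was 12.05 ± 0.61 (SD, n = 3) in Piedmontese and 11.54 ± 0.49 (n = 3) in Wagyu calves at birth, a difference of 0.52 (SE 0.36, 95% interval -0.36 to 1.39). SMAD7 was 9.03 ± 0.33 and 8.52 ± 0.50 there, a difference of 0.51 (SE 0.28, 95% interval -0.17 to 1.20). Both ranges overlapped. SMAD7 had the opposite sign after birth, at -0.28 (SE 0.15, 95% interval -0.60 to 0.05). Its difference lay below 0 at 6 of 6 post-natal ages, as did that of SMAD2. How many of all genes had such a run was not counted. The SMAD7 value averages a brighter and a dimmer probe. Under the other settings, single probes among them, its difference ranged from 0.13 to 0.90 at birth. After birth the range was -0.49 to -0.07. Over all animals the interval was -0.16 to 0.05 for SMAD3, -0.25 to 0.03 for INHBA, -0.16 to 0.13 for SMAD2 and -0.18 to 0.14 for ACVR2A.

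**Figure D2:**
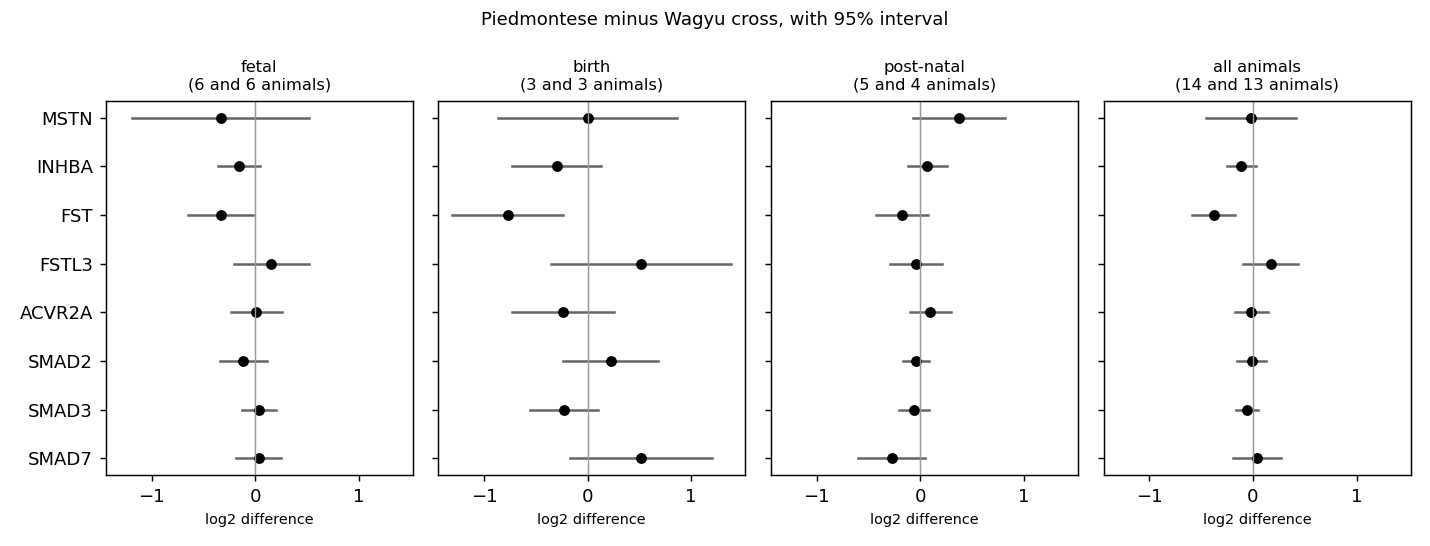
Difference between the crosses (Piedmontese minus Wagyu, log2, horizontal axis) for the 8 measured members, as points with 95% intervals, in fetal, newborn, post-natal and all animals. FST lies to the left of 0 in each panel, at -0.33, -0.77, -0.18 and -0.38, and MSTN has wide intervals that cross 0 in all of them.

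Age was compared next. Between 12 fetal and 9 post-natal animals, FST, INHBA and FSTL3 fell and ACVR2A rose, so that 4 of 8 members passed an adjusted p of 0.05 by limma. The fetal and the post-natal arrays lie on different slides. Slide and age therefore cannot be told apart here or in any fetal against post-natal value below. Of all genes 74.6% passed in this comparison, 38.6% upwards and 36% downwards, so a count of 4 is not high. For FST and INHBA the fetal and post-natal animals did not overlap, which was so for 41.1% of all genes. With median centring in place of loess and Aquantile, FSTL3 and ACVR2A lost this call, as did every SMAD2 and ACVR2A age step and every member step from 3 to 7 and from 12 to 20 months given below. The authors' log ratio also ended the steps of MSTN, FST and ACVR2A from 12 to 20 months, of FST and SMAD2 from 3 to 7 months, of ACVR2A from 195 days to birth and of SMAD2 from 60 to 135 days.

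Among the ligands, MSTN had a dip at birth. It fell by 1.51 on the log2 scale from 195 days to birth (SE 0.31, adjusted p = 4.17e-05), a 2.85-fold change, in a step at which 65.8% of all genes passed. It then rose by 1.24 from birth to 3 months (SE 0.28, adjusted p = 0.000219), where 48.2% of genes passed. Under the other settings the first step ranged from -2.44 to -1.41 and the second from 0.99 to 2.07. The arrays of birth and of 3 months lie on different slides, so that slide and age cannot be told apart for the step from birth to 3 months. Tissue markers moved at the same ages. In Piedmontese and Wagyu the mean level of 7 fibroblast genes was 12.19 and 12.57 at 195 days, 9.98 and 10.47 at birth and 10.85 and 10.94 at 3 months. Endothelial genes went from 11.71 and 11.64 to 10.48 and 10.51 at birth, and satellite cell and myoblast genes from 12.21 and 12.06 to 10.91 and 11.09. Muscle fibre genes went from 14.12 and 13.98 to 14.69 and 14.60. The part of these shifts in the MSTN steps was not tested. From 12 to 20 months MSTN fell by 1.09 (SE 0.24, adjusted p = 0.00224, 11.1% of genes passing). The 12-month levels were 8.92, 9.40, 9.81 and 9.83 in Piedmontese and 8.90 and 9.42 in Wagyu, and the 20-month levels were 7.82, 8.02, 8.85 and 9.25 and 7.32, 8.27, 8.40 and 8.58. Those ages overlap in Piedmontese and not in Wagyu. Without animal GW179 the step was -0.84 with an adjusted p of 0.150. The fetal and post-natal averages of MSTN did not differ detectably (0.09, SE 0.27, 95% interval -0.47 to 0.66), and without GP672 the value was -0.12 (SE 0.17).

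The averaged value of INHBA, the subunit of activin A, fell through gestation, though its 2 probes did not do so alike. The gene value dropped by 1.05 from 60 to 135 days (SE 0.17, adjusted p = 5.16e-06, 15.6% of genes passing), by 0.76 from 135 to 195 days (SE 0.13, adjusted p = 1.38e-05, 23.3% passing) and by 0.83 from 195 days to birth (SE 0.12, adjusted p = 8.51e-08). Without GP672 the first of these steps was -1.03 and the second -0.78. No step after birth passed. The brighter of its 2 probes was at 13.07 in both crosses at 60 days, at 11.26 and 11.64 at 135 days, at 10.03 and 10.15 at 195 days and at 8.01 ± 0.18 and 8.62 ± 0.56 (SD, n = 3 each) at birth, in Piedmontese and Wagyu. The dimmer probe was well above background in 80 of 96 channels and moved by far less. Taken alone it differed by -0.16 from 135 to 195 days (adjusted p = 0.323 by limma). From 195 days to birth it differed by 0.12 (adjusted p = 0.313). From fetal to post-natal animals the brighter probe fell by 2.20 (SE 0.37, adjusted p = 2.08e-05, beside 74.5% of single probes passing) and the dimmer one differed by -0.17 (SE 0.09, adjusted p = 0.0888), so the gene value of -1.18 (SE 0.22, adjusted p = 7.44e-05) averages unlike probes. Without GP672 the gene value was -1.19.

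Of the inhibitors, FST fell 4.08-fold between fetal and post-natal muscle, from a mean of 11.74 to 9.71, a difference of -2.03 (SE 0.13, n = 12 and 9, adjusted p = 1.55e-11), and -1.97 (SE 0.12) without GP672. Both probes agree on this, at -2.07 and -1.98. Most of it lay between birth and 3 months, where the level dropped by 1.53 (SE 0.16, adjusted p = 7.64e-11), again across a change of slides. It rose by 0.40 from 3 to 7 months (SE 0.13, adjusted p = 0.0216, 17.5% of genes passing) and fell by 0.43 from 12 to 20 months (SE 0.14, adjusted p = 0.043). The first of these calls was lost on leaving out any of 3 of the 9 animals and the second on leaving out any of 6 of the 8. Fibroblast genes fell between fetal and post-natal muscle too, 7 of 7 of them with a median of -2.33, as did 4 of 4 erythroid genes. The part of these changes in the fall of FST was not tested.

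FSTL3 had another course. Its level was 10.998 and 11.06 at 60 days, 12.05 and 11.54 at birth and 11.71 and 11.89 at 3 months in Piedmontese and Wagyu, and it fell by 0.69 from 3 to 7 months (SE 0.13, adjusted p = 0.00019). From fetal to post-natal muscle it fell by 0.31 (SE 0.13, adjusted p = 0.0386). That call rests on single animals: it was lost on leaving out any of 10 of the 21 animals, and without GP672 the value was -0.26 with an adjusted p of 0.0677. With GP041A and GP041B as 1 animal it was also lost (-0.28, adjusted p = 0.0633 by limma).

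**Figure D3:**
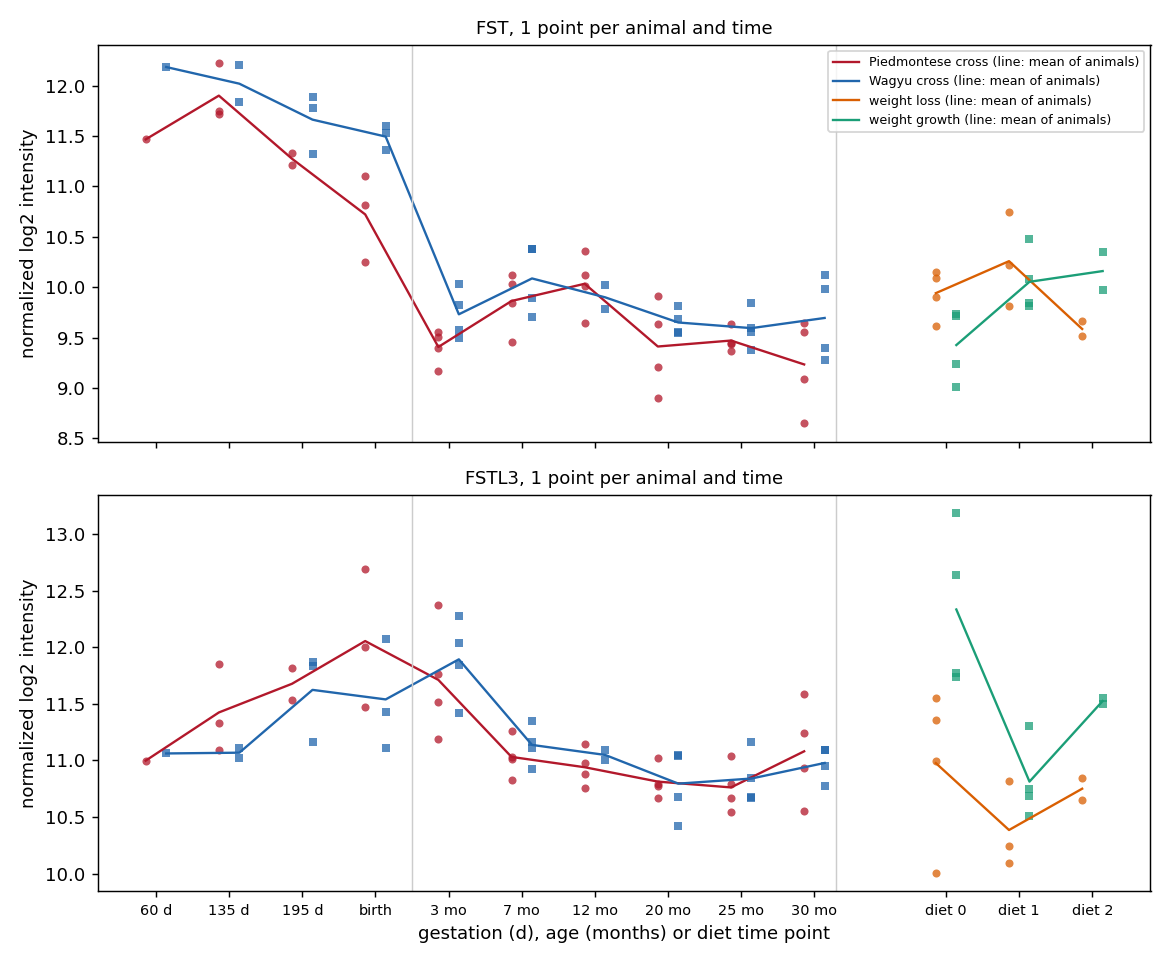
Levels of FST (upper panel) and FSTL3 (lower panel), in normalised log2 intensity, for each animal at each age and diet time point, with lines through group means. FST drops between birth and 3 months by 1.53 on average, while FSTL3 drops between 3 and 7 months by 0.69.

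ACVR2A, the type II receptor that binds activins and myostatin, rose by 0.23 from fetal to post-natal muscle (SE 0.08, adjusted p = 0.00971), a 1.17-fold change. The value was 0.19 (adjusted p = 0.0135) without GP672, and 0.14 (adjusted p = 0.303) with median centring. It fell by 0.32 from 195 days to birth (SE 0.14, adjusted p = 0.0421), a call lost on leaving out any of 7 of the 11 animals, and rose by 0.46 from birth to 3 months (SE 0.12, adjusted p = 0.00181). It fell by 0.38 from 12 to 20 months (SE 0.11, adjusted p = 0.0175), a call lost without either of 2 of the 8 animals. In these 3 steps its direction was that of MSTN.

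The SMADs moved little. SMAD2 rose by 0.37 from 60 to 135 days (SE 0.12, adjusted p = 0.0245), fell by 0.41 to 195 days (SE 0.09, adjusted p = 0.000607) and by 0.40 to birth (SE 0.09, adjusted p = 6.75e-05), and rose by 0.45 to 3 months (SE 0.08, adjusted p = 3.64e-06). The rise from 60 to 135 days lost its call without GP012 or GW625. Without GP672 that step was 0.44 and the next -0.48, both past the threshold. It rose by 0.17 from 3 to 7 months (SE 0.06, adjusted p = 0.0415), a call lost on leaving out any of the 9 animals. Post-natal means of SMAD2 all lay between 10.51 and 10.78. SMAD3 rose by 0.30 from 3 to 7 months (SE 0.08, adjusted p = 0.00655), an average of 0.48 for its brighter probe and 0.13 (adjusted p = 0.378) for its dimmer one. Its 2 probes went opposite ways from fetal to post-natal muscle: the brighter fell by 0.30 (SE 0.09, adjusted p = 0.00694) and the dimmer rose by 0.49 (SE 0.06, adjusted p = 3.42e-07). Which of them follows the SMAD3 transcript cannot be told from the arrays, and the averaged value of 0.10 hides both. No member passed from 7 to 12 months, from 20 to 25 months or from 25 to 30 months, where 11.6%, 11.6% and 20.9% of all genes did. SMAD7 passed in no age step and differed by 0.06 (SE 0.10) between fetal and post-natal muscle.

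**Figure D4:**
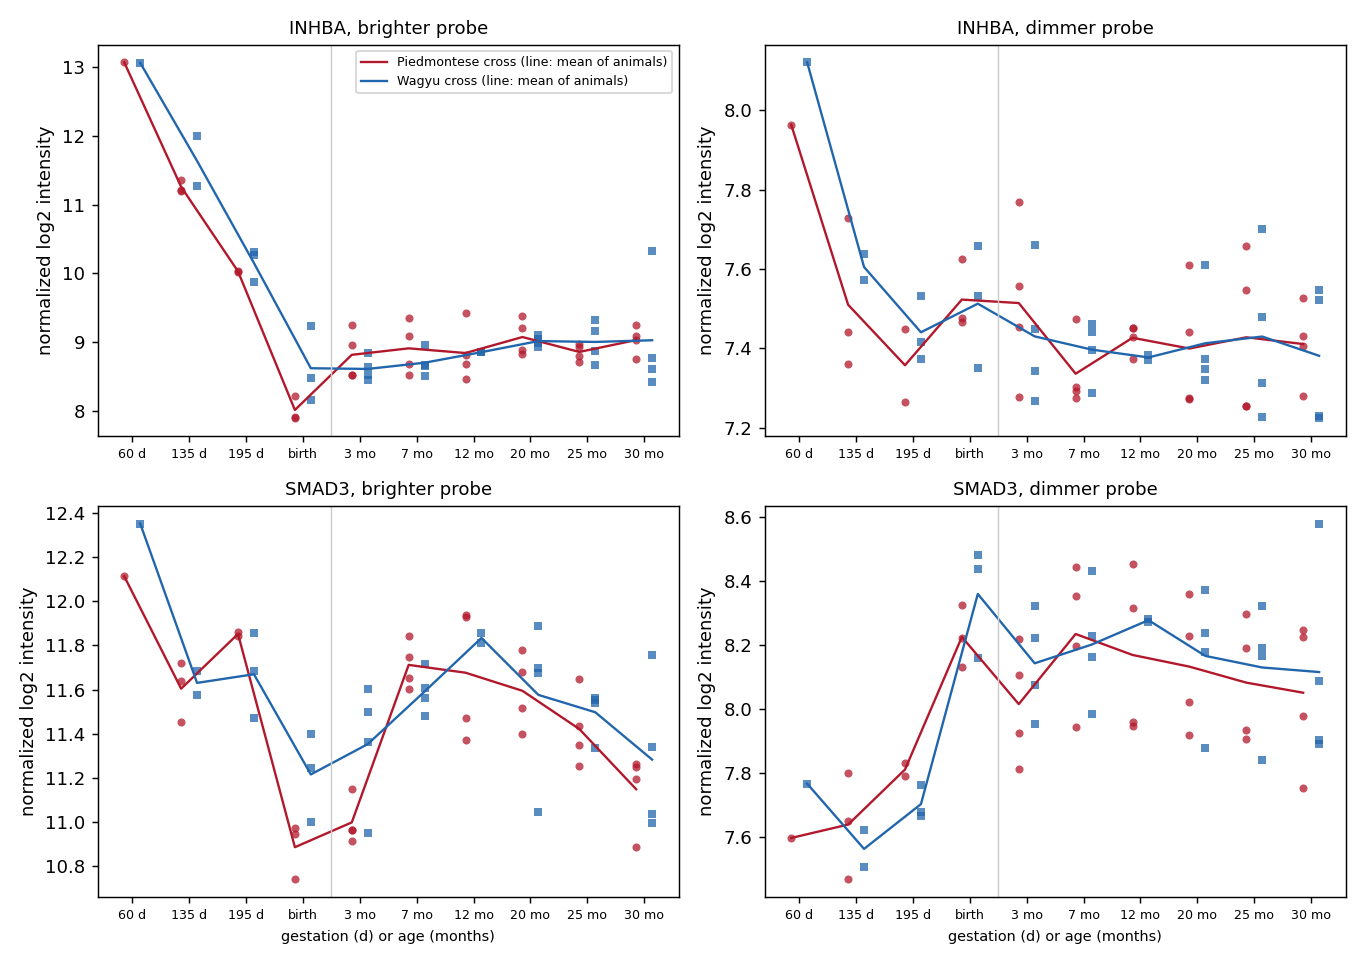
Levels of the brighter and dimmer probes of INHBA (upper row) and SMAD3 (lower row), in normalised log2 intensity, for each animal from 60 days of gestation to 30 months, with lines through group means. The brighter INHBA probe descends from 13.07 at 60 days to 8.01 and 8.62 at birth while the dimmer one shifts little, and the SMAD3 probes move in opposite directions from 195 days to birth (-0.71 and 0.54).

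Other genes of the pathway were described from a list of 55 ligands, binding proteins, proteases, receptors, SMADs and BMP-arm genes, of which 42 were tested. Between the crosses 0 of the 42 passed in the fetal, newborn, post-natal and all-animal comparisons. From fetal to post-natal muscle 11 rose, 16 fell and 15 did not pass, with a median of -0.22 beside 0.02 for all genes. Of all genes, 38.6% rose and 36% fell past the threshold in this comparison. PCSK6 (1.52) and FURIN (1.16), proteases that cleave TGF-beta family precursors, rose, as did the receptors BMPR1A (1.36) and ACVR1B (0.77). FSTL1, a relative of follistatin, fell by 2.73. Of 12 genes known to respond to SMAD2 and SMAD3, 0 passed between the crosses. With age 3 of them rose and 8 fell, beside the same shares of all genes, with a median of -1.60. The collagens COL1A2 (-3.05), COL3A1 (-2.84) and COL1A1 (-2.33) and the matrix protein FN1 (-2.32) fell, and the transcription factor JUNB rose by 1.85. COL1A1 and COL3A1 are also among the fibroblast genes.

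The diet experiment held the single member call between diets or crosses. At time 0 the MSTN levels were 7.42, 7.59, 7.63 and 8.06 on the weight growth diet and 7.32, 7.70, 8.76 and 8.80 on the weight loss diet. At time 1 they were 8.09, 8.71, 9.43 and 9.52 on the growth diet and 7.37, 7.90 and 8.19 on the loss diet. The time 1 groups overlap by a narrow margin. From time 0 to time 1 MSTN rose by 0.65, 0.67, 1.84 and 1.89 in the 4 growth animals, and the 3 loss animals moved by -1.40, -0.61 and 0.20. Each diet time lies on a slide of its own, which both diets share. Within a diet, slide and time therefore cannot be told apart. The changes of the groups did not overlap, which was so for 25.7% of all genes. The difference in change was -1.87 (SE 0.46, 95% interval -2.93 to -0.80), with an adjusted p of 0.0477 by limma, and 8.48% of all genes passed. The call was lost on leaving out any of 6 of the 7 animals, with differences from -2.27 to -1.47.

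Tissue markers moved as well. From time 0 to time 1, 4 of 6 fast fibre genes fell relative to the growth diet, with a median of -1.40. So did 3 of 7 fibroblast genes, with a median of -2.31, beside 4.32% of all genes. Of 9 muscle fibre genes 2 fell and 1 rose, and of 4 satellite cell and myoblast genes 1 rose, beside 4.16% of all genes rising. At time 1 alone, 4 of 6 fast fibre genes were lower on the loss diet with a median difference of -1.82. So were 5 of 7 fibroblast genes with a median of -1.58, beside 6.93% of all genes. Of 9 muscle fibre genes 5 were lower and 1 higher, and of 4 satellite cell and myoblast genes 1 was higher, beside 7.08% of all genes higher. The mean level over the muscle fibre genes was 13.84 to 13.98 in the loss animals and 14.87 to 15.75 in the growth animals. The part of these shifts in the MSTN difference was not tested.

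At each diet time taken alone 0 of 8 members passed, beside 1.01% of all genes at time 0, 14% at time 1 and 0% at time 2, where 813 genes had an unadjusted p under 0.05 by limma. MSTN at time 1 differed by -1.12 (SE 0.37, n = 3 and 4, adjusted p = 0.0844). It passed with the authors' log ratio (-1.58, adjusted p = 0.0238) and without the growth animal RG604 (-1.41, adjusted p = 0.037). FSTL3 was lower on the loss diet already at time 0, with levels of 10.002, 10.99, 11.35 and 11.55 against 11.74, 11.77, 12.63 and 13.19 on the growth diet. The groups did not overlap, for FSTL3 and for SMAD7, beside 9.98% of all genes. The FSTL3 difference was -1.36 (SE 0.42, adjusted p = 0.174) at time 0 and -0.77 (SE 0.14, n = 2 and 2, adjusted p = 0.64) at time 2. Time 2 holds 2 animals per diet, each on 2 arrays, and 5 of 8 members had groups that did not overlap there, beside 31.3% of all genes. At time 1 the groups did not overlap for INHBA and SMAD2, beside 29.6% of all genes. The SMAD2 change from time 0 to time 1 was 0.43 to 0.69 in the growth animals and -0.13, 0.24 and 0.31 in the loss animals, a difference of -0.39 (SE 0.15, adjusted p = 0.145).

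Of the 42 pathway genes, 5 were lower and 0 higher on the loss diet at time 1, beside 6.93% and 7.08% of all genes. From time 0 to time 1, 1 pathway gene fell relative to the growth diet, beside 4.32% of all genes. Of the 12 response genes 5 were lower and 1 higher at time 1. COL3A1 (-4.48), COL1A1 (-4.38) and COL1A2 (-4.06) had the largest differences there. From time 0 to time 1 COL3A1 (-4.96) and FN1 (-4.50) fell and CDKN1A (4.21), a cell cycle inhibitor, rose relative to the growth diet. At time 0 the receptor ACVR1B was higher on the loss diet (0.86, adjusted p = 0.0456).

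**Figure D5:**
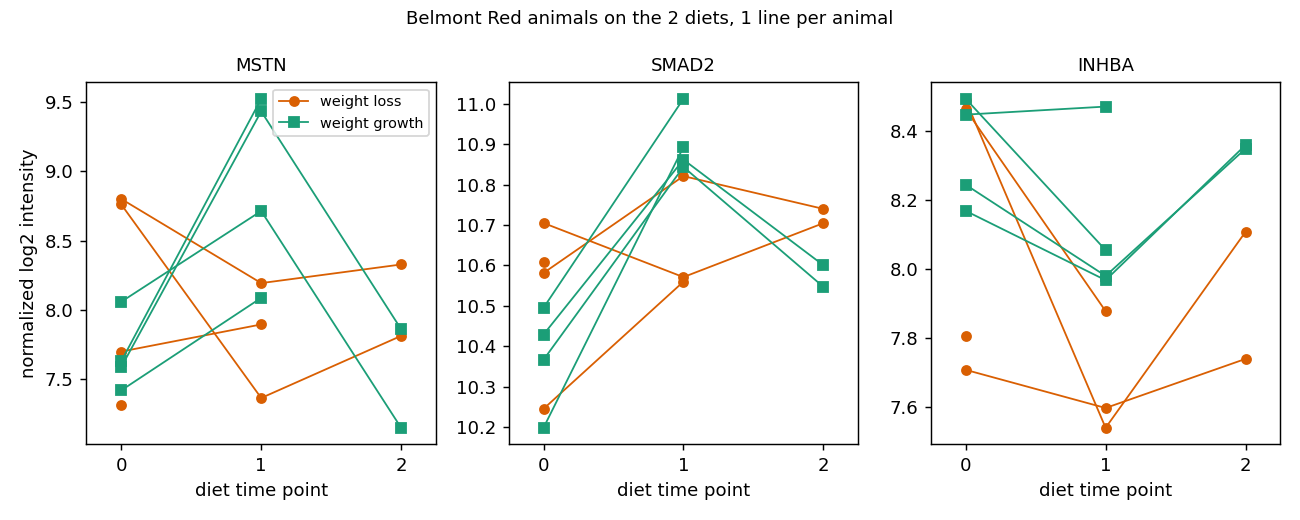
Levels of MSTN, SMAD2 and INHBA (normalised log2 intensity, vertical axis) at diet time points 0, 1 and 2 (horizontal axis), 1 line per animal, on the weight loss and weight growth diets. MSTN climbs from time 0 to time 1 in the 4 growth animals, by 0.65 to 1.89, and moves by -1.40 to 0.20 in the 3 loss animals measured at both times. Each time point lies on its own slide, so slide and time cannot be told apart within a diet.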

How the data were processed

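Intensities in both dyes, deposited by the authors as Agilent Feature Extraction 9.5.1 scanner output, were the starting point. The value table deposited by the authors holds the same software's log10 ratio and served as an alternative; 0 of 44407 spots per array differed. Background was corrected with normexp (offset 50), arrays were normalised by loess and then Aquantile, spots and probes of a gene were averaged on the log2 scale after the dye effect of each probe was removed, and probes well above background in at least 24 of 96 channels were kept. Values of an animal at a time were averaged. The authors' methods fitted a mixed model to background-adjusted log2 intensities; here limma 3.58.1 in R 4.3.3 was used, two-sided, with Benjamini-Hochberg adjustment over all 14653 genes. Age steps, cross by stage and cross at each age were fitted on 64 animal-by-time values with the animal as a random block (correlation 0.285). Scripts were tested on simulated data. Arrays carry no count depth: 49.9% to 76.4% of probes per channel were well above background, and the number of animals limits the precision. RefSeq (ARS-UCD2.0) supplied names for 16738 of 21475 probes and no coordinates; the genome build of the array design is not given in the sources used here. Members, gene lists and tests were chosen with earlier results of these data known. Named list genes were the 5 largest rises and falls with age and the 3 largest called differences per diet comparison. Alternatives covered background, normalisation, dye, filter, probe choice, blocks and leaving out each animal; single-probe fits were added after seeing the data.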

Additional observations from a re-analysis of the deposited data

Results flagged for a closer look

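The difference in MSTN change between the diets, -1.87 on the log2 scale from time 0 to time 1 (limma, adjusted p = 0.0477), is listed here because the same contrast over time differed between the 2 groups.

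Of 128 sets of values, each 1 member in 1 group of 4 or more animals, 5 held an animal far from the others. Chance gives about 1 in 20, and the sets of different members share animals. Fetal and newborn groups held fewer than 4 animals per cross and were not examined. INHBA at 25 months was 8.31 in the Wagyu animal GW245, with the other Wagyu animals at 8.17 to 8.19. ACVR2A at diet time 1 was 8.95 in the growth animal RG166, with the others at 8.37 to 8.45. SMAD2 at 30 months was 10.82 in the Piedmontese animal GP285 (others 10.67 to 10.69) and 10.57 in the Wagyu animal GW169 (others 10.83 to 10.87). The post-natal SMAD3 deviation was 0.19 in the Wagyu animal GW245, with the others from -0.02 to 0.00.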

How the results depend on the processing

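MSTN and FST passed between the crosses under no alternative except for FST over all animals (-0.30) with the array as a replicate block. That block pairs the samples hybridised together, and changed the number of genes called to 0 at birth, 95 after birth and 233 over all animals. Of the member values under other settings, 684 kept direction and side of the threshold, 40 lost a call, 4 gained one and 15 changed sign. With an animal left out these were 774, 46, 1 and 13. Differences of the other members that were smaller than their SE were not carried through the alternatives. Of the lost calls, 15 were lost with median centring and 7 with the authors' ratio. The MSTN diet change lost its call with quantile normalisation (-1.58), with the dye effect kept (-1.85) and without a filter (-1.87), and ranged from -2.27 to -1.47 with an animal left out. The cause was not tested.

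MSTN differences near 0 changed sign. At birth (0.00) this was so with the dye effect kept (-0.0151). The other settings reached up to 0.93 there, and leaving out a calf gave -0.35 to 0.41. Over all animals (-0.0191) the sign changed with background subtraction (0.0131), median centring (0.0382) and quantile normalisation (0.0273). It also changed with the authors' ratio (0.043) and the replicate block (0.102), and leaving out an animal gave -0.0866 to 0.121. From fetal to post-natal it changed with a random block (-0.0353), and leaving out an animal gave -0.12 to 0.158. Signs also turned for INHBA with its dimmer probe (0.0103 at birth, 0.0623 at diet time 1, 0.107 for the diet change, 0.119 from 195 days to birth), for SMAD3 with age with its brightest or brighter probe (-0.30), for SMAD2 at diet time 1 (0.0239) and the FST diet change (0.00676) with median centring, and for ACVR2A at diet time 2 without RL27 (-0.0017, up to 0.417 without RL24).

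Genes called at birth (1) went to 0 with background subtraction, median centring, quantile normalisation, the authors' ratio or the dye effect kept. After birth (0) they were 1 with the authors' ratio and 3 with a random block. Over all animals (2) they were 1 with background subtraction, 17 with the authors' ratio, and 0 with median centring, the dye effect kept, no filter or GP041A and GP041B as 1 animal. At diet time 0 (148) they were 26 with median centring, 70 with quantile normalisation and 697 with the authors' ratio, which gave 3225 at time 1 (2054), 1 at time 2 (0) and 2415 for the change (1243, 827 with the dye effect kept). Cross by stage (72) gave 4 with background subtraction, 17 with median centring, 256 without a filter and 45 with the stricter filter. With an animal left out the counts ranged from 0 to 20 at birth, 0 to 1 after birth, 0 to 3 over all animals, 10 to 62 at diet time 0, 626 to 2023 at time 1, 260 to 840 for the change and 48 to 114 for cross by stage. Slide as a fixed block could not be fitted for birth to 3 months or 20 to 25 months.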

Other observations

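The genes whose course was most like that of MSTN over the 20 age-by-cross means were NKIRAS2 (Pearson r = 0.90), SPIN1 (0.84), MRC1 (0.83), CDK5RAP2 (0.82) and RIPOR2 (0.82). ACVR2A was the member most like it, at 0.75. Over the 36 log ratios of single arrays, Piedmontese over Wagyu, they were HHATL (0.79), HRC (0.77), TBC1D19 (0.76), LOC537529 (0.75) and ATCAY (0.75). The points share animals and slides, and both values of a pair come from the same array. These correlations include GP672 and were not taken without it. An array at 135 days had an MSTN log ratio of -2.56.

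Log ratios over all genes agreed little between arrays of the same age: the correlation of a pair ranged from -0.45, at 20 months, to 0.79, at 60 days, where all 3 arrays hold the same 2 animals.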
